A study of Mus musculus with 18 samples.

Results

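The livers compared are those of mice killed in the middle and near the end of the dark phase, at zeitgeber time (ZT) 17 and ZT21, where ZT counts hours from lights on. They were taken by their labels alone and are 6 of the 18 livers sequenced, 3 at ZT17 (mice 25, 26 and 27) and 3 at ZT21 (mice 31, 32 and 33). All 6 came from wild-type males aged 8 to 9 weeks, which lived in 12 h of light and 12 h of dark and received no treatment that the labels name. The study sequenced polyadenylated RNA of whole livers at 6 times of day, 4 h apart, to find genes with a daily rhythm. Each mouse gave 1 liver, so no animal was followed from ZT17 to ZT21, and its methods state that the animals sequenced were those with the best RNA of a larger number kept at each time.

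In the liver a clock of transcription factors sets daily rhythms. ARNTL (BMAL1) pairs with CLOCK or NPAS2 to activate genes through E-boxes, the PER and CRY proteins repress that pair, and the REV-ERB receptors repress *Arntl* and *Npas2*. Mice feed mostly in the dark, so the liver at this time passes from a fed state of nutrient storage and protein synthesis towards the fast of the light phase. Chaperones of the cytosol and of the endoplasmic reticulum (ER), which fold new proteins, are among the genes known to follow the daily rhythms of feeding and body temperature.

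Values are estimated reads of a gene scaled to 1000000 reads of the liver, called normalised values here. The 6 livers held between 11489612 and 15204349 estimated reads each, within the 10268168 to 23242842 of all 18. Over the list of 22 clock genes, each of the 6 livers was nearest in level to the other livers of its own time, as were 17 of all 18, mouse 9 at ZT5 being nearest to ZT9, and no pair of livers of 1 time held identical values. The labels give no batch. Differences are given on the scale of log2(normalised value + 1), ZT21 minus ZT17, which understates the change of genes with low values. The test was limma's moderated test on all 18 livers, two-sided, with Benjamini–Hochberg adjustment over 14449 genes, and a gene is called changed at an adjusted *P*-value below 0.05. An exact permutation test of 3 livers against 3 could not reach that level, since its smallest *P*-value is 0.1.

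Among the genes called, with predicted gene models left out, the largest rises from ZT17 to ZT21 were in *Npas2*, a clock activator, and *Igfbp1*, a secreted binder of insulin-like growth factors that insulin represses. The largest falls among them were in *Hspa1b*, an inducible heat shock chaperone, the clock repressor *Per2* and the ER protein *Creld2*. In all, 333 genes were called, which is 2.30% of those tested. Of these, 190 rose (1.31%) and 143 fell (0.990%). A difference of at least 2-fold on the log2 scale was reached by 28 genes that rose and 12 that fell, and the median size of the called differences was 0.62, with a median SE of 0.13. The 3 livers of one time did not overlap the 3 of the other in 332 of the called genes, while 20.5% of all genes were separated in this way. At an unadjusted *P*-value below 0.05 there were 2210 genes.

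**Figure D1:**
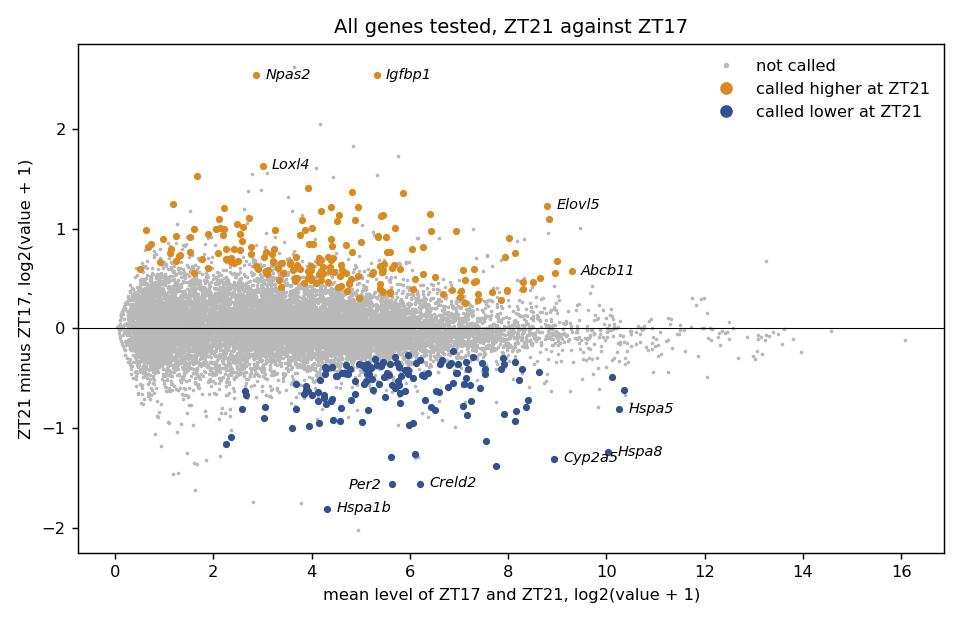
Each point is 1 of 14449 genes. The x axis is its mean level at ZT17 and ZT21 as log2(value + 1) and the y axis is the difference ZT21 minus ZT17 on that scale, with the 190 genes called higher in orange and the 143 called lower in blue. Few called genes lie at the lowest levels. Of the 333 called, 5 had a mean value below 1, whereas 12480 of the 14449 genes had a mean of at least 1. *Npas2* and *Igfbp1* stand highest among the called genes at 2.54.

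The number of calls rested on single livers. It was 71 without mouse 25, 222 without mouse 26 and 229 without mouse 27 at ZT17, and 193, 136 and 131 without mice 31, 32 and 33 at ZT21. With each liver scaled to its plain total in place of the authors' library size, the call count was 335, but 250 of them (74.6%) were higher at ZT21 and 85 lower, against 57.1% higher as reported. That scaling moved the median of all genes from 0.002 to 0.046. Among the genes named in what follows, it ended the calls of *Srebf1*, *Acaa1a*, *Arf4*, *Surf4*, *Uso1*, *Bnip3*, *Alad* and *Rpl7l1*. Robust shrinkage ended those of *Igfbp1*, *Cyp2a5*, *Nnmt*, *Arrdc3* and *Srebf1*, and a spread without a mean trend ended 15, *Igfbp1*, *Nnmt* and *Srebf1* among them. With the spread taken from the 6 livers alone, 172 genes were called. Of the named genes this ended 20 calls, those of *Nr1d2*, *Hlf*, *Dnajb9*, *Herpud1*, *Sec23b*, *Surf4*, *Uso1*, *Acaa1a*, *Hsd3b7*, *Abcg8*, *Alad*, *Gabarapl1*, *Tsc1*, *Bnip3*, *Tuba1c*, *Mybbp1a*, *Rpl7l1*, *Wsb1*, *Tnnc1* and *Zfp9*.

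Among the clock genes, *Npas2* changed most. Its normalised values were 1.54, 0.562 and 1.46 at ZT17 and 11.6, 13.4 and 9.5 at ZT21. All ZT21 livers lay far above the ZT17 livers, a 9.68-fold rise of the mean (log2 difference 2.54, SE 0.18, adjusted *P* = 5.77e-07), and this was the smallest adjusted *P*-value of any gene. *Npas2* spans chr1:39193731-39363236 of GRCm38. Its partner *Arntl* was already at 19.9 ± 2.32 (SD, n = 3) at ZT17 and stood at 26.3 ± 4.35 (SD, n = 3) at ZT21, so the difference of 0.38 did not pass the test (adjusted *P* = 0.5) although the livers did not overlap. *Clock*, the other partner of ARNTL, differed by 0.10 (adjusted *P* = 0.691).

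Of the repressors, *Per2* was at 77.3, 94.6 and 50.2 at ZT17 and 30.2, 19.1 and 22.6 at ZT21. Every ZT21 liver was below every ZT17 liver, with the mean 3.09-fold lower (log2 difference −1.56, SE 0.23, adjusted *P* = 0.00165). *Per3* was at 14.8, 18.4 and 12.6 at ZT17 and 5.93, 8.33 and 7.03 at ZT21 and fell 2.15-fold (log2 difference −1.0, SE 0.19, adjusted *P* = 0.00913). Both genes had passed their highest mean of the day before ZT17. *Per1* went the other way in its values, 8.95, 7.05 and 6.68 at ZT17 and 17.5, 10.1 and 11.9 at ZT21, but the difference did not pass (0.70, adjusted *P* = 0.297). *Cry1*, which was near its daily maximum at both times, and *Cry2* differed by 0.05 and −0.24 (adjusted *P* = 0.921 and 0.322).

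Of the PAR bZIP factors, which activate output genes through D-boxes, *Tef* and *Hlf* fell. *Tef* stood at 104, 112 and 109 at ZT17 and 60.2, 64.7 and 61.5 at ZT21, with narrow and separate groups (log2 difference −0.79, SE 0.10, adjusted *P* = 0.00044), and *Hlf* at 64.9, 63.9 and 54.6 at ZT17 and 36.9, 47.4 and 35.8 at ZT21, also separate (log2 difference −0.60, SE 0.12, adjusted *P* = 0.0115). *Dbp* was low at both times, at 1.92, 2.36 and 1.55 at ZT17 and 1.01, 1.29 and 0.515 at ZT21. Its groups were separate, but the difference of −0.62 did not pass the test (adjusted *P* = 0.0873). *Nfil3*, a repressor at the same DNA element, differed by 0.14 (adjusted *P* = 0.649).

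Of the REV-ERB genes, *Nr1d2* fell from 19.7, 20.2 and 16.6 to 9.51, 11.4 and 13.8 (log2 difference −0.67, SE 0.15, adjusted *P* = 0.0217). *Nr1d1* was near its daily minimum, at 1.14, 1.16 and 2.43 at ZT17 and 2.10, 3.23 and 3.08 at ZT21, and its groups overlapped (0.59, adjusted *P* = 0.291). *Rora*, a receptor that activates through the same element, differed by 0.22 (adjusted *P* = 0.417). Further clock genes of the list did not pass either, among them the DEC repressors *Bhlhe40* (−0.20, adjusted *P* = 0.763) and *Bhlhe41* (−0.04, adjusted *P* = 0.972), *Ciart*, a repressor of ARNTL and CLOCK (−0.77, adjusted *P* = 0.221), and the PER kinases *Csnk1d* (−0.03, adjusted *P* = 0.921) and *Csnk1e* (0.07, adjusted *P* = 0.894). In all, 1 of 22 clock genes rose and 5 fell, where 1.31% of all genes rose and 0.990% fell. The median difference over the list was −0.03 against 0.002 over all genes, or 0.01 with plain total scaling. Some of these calls were lost when a liver was left out, namely *Nr1d2* without mouse 25, 26, 31 or 32 (up to 0.101) and *Hlf* without mouse 25 or 33 (up to 0.0689), with the adjusted *P*-value in parentheses. With the spread of the 6 livers alone, 3 of the 5 falls were called.

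**Figure D2:**
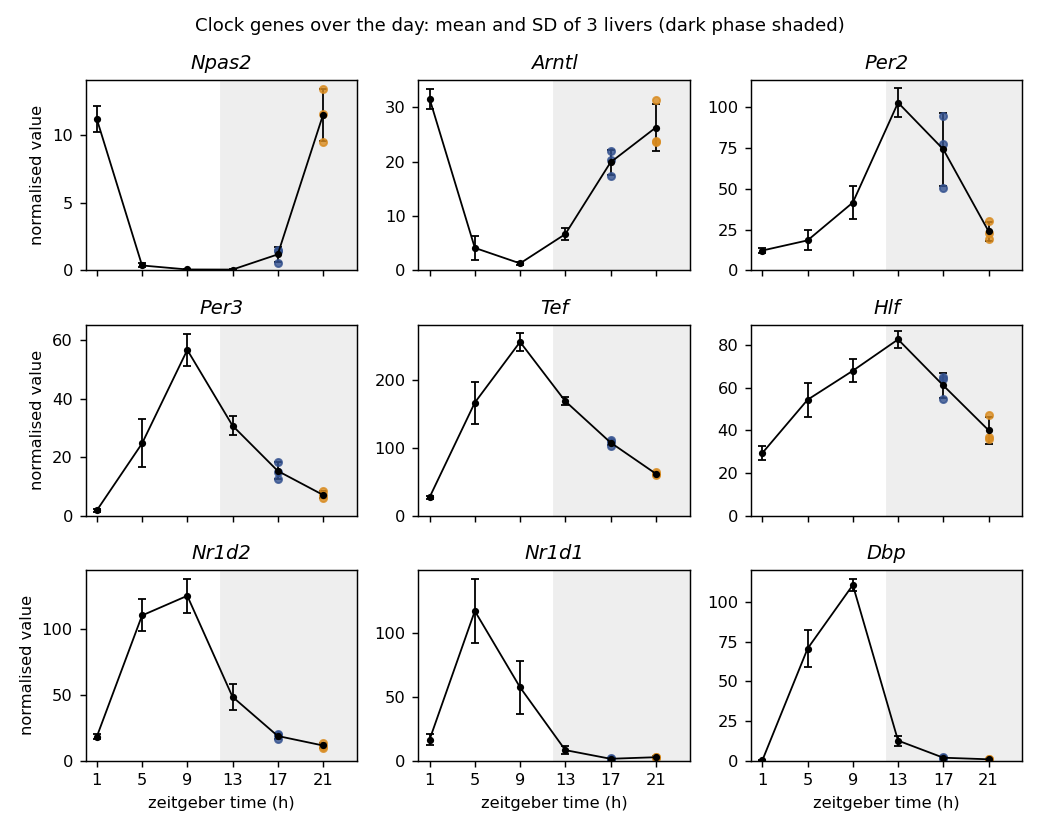
Normalised values of 9 clock genes (y axis, each from 0) at the 6 zeitgeber times (x axis, hours), as mean and SD of 3 livers, with the single livers of ZT17 in blue and of ZT21 in orange and the dark phase shaded. *Npas2* is near 0 from ZT5 to ZT13 and rises to 11.5 at ZT21, whereas *Per2*, *Per3*, *Tef*, *Hlf* and *Nr1d2* are on the falling side of their daily curve.

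The promoters of 4 clock genes that moved are shown for the elements named above. The lines that follow hold the 250 bases upstream of the RefSeq start (GRCm38.p6, 5′ to 3′ on the gene's strand) of *Npas2* (chr1:39194022-39194271, plus strand), the only clock gene that rose, and of *Tef* (chr15:81802423-81802672, plus strand), *Per3* (chr4:151044666-151044915, minus strand) and *Nr1d2* (chr14:18239107-18239356, minus strand), which fell. Capitals mark any E-box (CACGTG), D-box (TTATGTAA), core of a REV-ERB or ROR receptor site (AGGTCA) or heat shock element core (TTCNNGAA), searched on both strands.
Npas2: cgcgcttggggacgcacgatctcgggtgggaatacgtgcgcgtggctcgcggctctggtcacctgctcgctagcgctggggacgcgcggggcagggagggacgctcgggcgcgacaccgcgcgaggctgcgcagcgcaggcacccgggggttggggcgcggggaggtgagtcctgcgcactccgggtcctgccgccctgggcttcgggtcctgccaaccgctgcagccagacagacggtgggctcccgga
Tef: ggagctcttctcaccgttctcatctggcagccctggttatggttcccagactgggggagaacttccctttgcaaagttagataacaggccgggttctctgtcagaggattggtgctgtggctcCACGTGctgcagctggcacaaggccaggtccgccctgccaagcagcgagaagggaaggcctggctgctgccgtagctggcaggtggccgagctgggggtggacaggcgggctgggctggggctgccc
Per3: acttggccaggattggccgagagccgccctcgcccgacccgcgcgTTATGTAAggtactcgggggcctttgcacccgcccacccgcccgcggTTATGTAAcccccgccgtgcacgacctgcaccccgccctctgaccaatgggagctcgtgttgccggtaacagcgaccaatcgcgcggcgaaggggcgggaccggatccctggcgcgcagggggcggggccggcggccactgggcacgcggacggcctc
Nr1d2: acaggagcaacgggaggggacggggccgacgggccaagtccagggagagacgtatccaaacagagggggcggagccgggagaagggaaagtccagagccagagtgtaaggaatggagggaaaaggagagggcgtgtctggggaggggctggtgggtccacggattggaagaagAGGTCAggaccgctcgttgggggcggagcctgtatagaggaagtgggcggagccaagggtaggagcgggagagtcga
The *Tef* stretch holds 1 E-box, and the stretch before its other RefSeq start holds 1 as well. *Per3* has 2 D-boxes, *Nr1d2* has 1 receptor core, and none of these letters occurs in the *Npas2* stretch or in the 300-base window of *Hlf*. The *Npas2* and *Tef* stretches lie inside the annotated spans of these genes, and the *Nr1d2* stretch overlaps its span in part. The bases before the annotated start of *Npas2* are thus not shown. *Per2* is not shown. In windows of 300 bases (250 before to 50 after a start), which matched 255 of the called genes, an E-box was in 17.9% of 151 windows of genes that fell, 10.7% of 196 windows of genes that rose and 9.6% of all 13198 windows. The D-box was in 1.99%, 0.00% and 0.583% of these windows, the receptor core in 15.9%, 11.2% and 13.3%, and the heat shock core in 10.6%, 6.63% and 7.01%. A match is a description of the letters and not a bound site.

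The list of chaperones under heat shock factor and of cold-inducible genes held 8 falls and no rise among 20 genes, where 0.990% of all genes fell. *Hspa1b* was at 30.3, 33 and 26.6 at ZT17 and 9.17, 7.72 and 6.68 at ZT21. No ZT21 liver came near the lowest ZT17 liver, a 3.81-fold fall of the mean (log2 difference −1.81, SE 0.30, adjusted *P* = 0.00432). *Hspa8*, the constitutive HSC70, was among the most abundant genes called and went from 1589, 1475 and 1342 to 720.4, 552 and 603 (log2 difference −1.24, SE 0.19, adjusted *P* = 0.00209). Their J-domain partners fell as well, *Dnaja1* from 474, 384 and 382 to 257, 225 and 233 (log2 difference −0.79, SE 0.14, adjusted *P* = 0.00714) and *Dnajb1* from 24.9, 28.7 and 22.4 to 15.3, 14.9 and 14.4 (log2 difference −0.73, SE 0.13, adjusted *P* = 0.00897). In the list 19 differences were negative, and the median was −0.43 against 0.002 over all genes. The other 4 that fell were the HSP70 cochaperone *Bag3* (−0.82, adjusted *P* = 0.0137) and the HSP90 cochaperones *Chordc1* (−0.75, adjusted *P* = 0.00913), *Fkbp4* (−0.41, adjusted *P* = 0.0106) and *Stip1* (−0.45, adjusted *P* = 0.047). The mitochondrial chaperones *Hspd1* and *Hspe1* differed by −0.10 and −0.17 and did not pass (adjusted *P* = 0.57 and 0.377). The cold-inducible *Cirbp* and *Rbm3* differed in opposite directions, by 0.26 and −0.33, and did not pass either (adjusted *P* = 0.454 and 0.367). *Hspa1a* is nearly identical to *Hspa1b*, and the counting divides reads between them, so the split between *Hspa1a* (−0.36, adjusted *P* = 0.726) and *Hspa1b* is uncertain. Without mouse 25 the list held 3 calls, and of the first 4 genes described *Dnaja1* lost its call (adjusted *P* = 0.0534).

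In the list of folding and stress in the ER 11 of 28 genes measured fell and none rose, where 0.990% of all genes fell. *Hspa5*, the ER HSP70 known as BiP, was at 1960, 1548 and 1221 at ZT17 and 891, 802 and 951 at ZT21. The groups were separate although the ZT17 livers spread widely (log2 difference −0.81, SE 0.15, adjusted *P* = 0.00913). *Creld2*, a factor induced by ER stress, went from 131, 102 and 95.8 to 33.5, 29.4 and 47.8, or 2.97-fold lower (log2 difference −1.56, SE 0.27, adjusted *P* = 0.00569). *Dnajb9*, an ER J-domain protein, went from 117, 82.5 and 65.3 to 41.2, 53.2 and 38.2 (log2 difference −0.95, SE 0.18, adjusted *P* = 0.0098), and *Herpud1*, which takes part in ER-associated degradation, from 398, 294 and 240.1 to 179.6, 188 and 137 (log2 difference −0.86, SE 0.15, adjusted *P* = 0.00569). In these 3 genes and in *Hspa5*, mouse 25 was the highest of the ZT17 livers. Of the 28 differences 27 were negative, and the median was −0.41. The other members called were *Hyou1* (−0.83, adjusted *P* = 0.0189), *Manf* (−0.78, adjusted *P* = 0.0177), *Hsp90b1* (−0.49, adjusted *P* = 0.0269), *Dnajb11* (−0.45, adjusted *P* = 0.0321), *Dnajc3* (−0.41, adjusted *P* = 0.0404), *Sec61a1* of the translocation channel (−0.41, adjusted *P* = 0.0325) and *Derl1* (−0.23, adjusted *P* = 0.0493). The transcription factor *Xbp1* differed by 0.02 (adjusted *P* = 0.982) and *Atf4* by −0.10 (adjusted *P* = 0.757). The count of 11 was 2 without mouse 25, 4 without mouse 26 or 32, 5 without mouse 31 and 6 without mouse 33. With the spread taken from the 6 livers alone it was 4. It was 7 with plain total scaling or quantile normalization and 6 without the mean trend. Calls lost among the 4 genes described first were *Hspa5* without mouse 25 (0.0637) and *Dnajb9* without mouse 25 or 33 (up to 0.0657).

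Further genes of entry into the ER had some of the smallest adjusted *P*-values among the genes that fell. *Srprb*, a subunit of the receptor for the signal recognition particle, was at 36.9, 32.6 and 36.5 at ZT17 and 20.7, 23.2 and 22.2 at ZT21 (log2 difference −0.66, SE 0.09, adjusted *P* = 0.00152). *Lrrc59*, a ribosome-binding protein of the ER membrane, was at 91.1, 101 and 98.9 at ZT17 and 57.4, 54.5 and 64.4 at ZT21 (log2 difference −0.72, SE 0.10, adjusted *P* = 0.00133). In both, the ZT17 livers lay well above all ZT21 livers. In the list of COPI, COPII and Golgi trafficking, which moves folded proteins onward, 5 of 31 genes fell and none rose. Of all genes 0.990% fell. The median of the list was −0.18, with 27 negative differences. *Sec23b*, a COPII coat subunit, went from 76.0, 80.4 and 57.8 to 40.8, 44.8 and 50.9 (log2 difference −0.63, SE 0.13, adjusted *P* = 0.0142). The small GTPase *Arf4* (−0.35, adjusted *P* = 0.0204), the cargo receptor *Surf4* (−0.30, adjusted *P* = 0.0222), the Golgi tether *Uso1* (−0.36, adjusted *P* = 0.0298) and the cargo receptor *Lman1* (−0.34, adjusted *P* = 0.0376) fell by less. The count of 5 was 0 without mouse 25, 26 or 32, 1 without mouse 31 and 3 without mouse 33. It was 1 with plain total scaling, with the spread of the 6 livers alone or without the mean trend.

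Genes of fatty acid synthesis moved both ways, with 3 of 22 higher and 1 lower, where 1.31% of all genes rose and 0.990% fell. The median was 0.08, or −0.06 without mouse 25. The count of rises was 1 without mouse 25 and 2 without mouse 33. *Elovl5*, an elongase of polyunsaturated fatty acids, stood at 215, 288 and 290.4 at ZT17 and 535, 692 and 634 at ZT21. It was the most abundant of the largest rises, and its groups were far apart (log2 difference 1.23, SE 0.16, adjusted *P* = 0.000694). *Acss2*, which makes cytosolic acetyl-CoA from acetate, rose from 137, 239 and 166 to 336, 304 and 357 (log2 difference 0.91, SE 0.18, adjusted *P* = 0.0123), and *Insig2*, which retains SREBP in the ER, from 182, 159.5 and 209 to 299, 313 and 295 (log2 difference 0.72, SE 0.14, adjusted *P* = 0.00913). *Srebf1*, the main transcription factor of lipogenesis, fell from 407, 408 and 436 to 243, 229 and 292 (log2 difference −0.72, SE 0.17, adjusted *P* = 0.0364). *Fasn*, its classical target, was at 805, 1409 and 1138 at ZT17 and 679, 658 and 816 at ZT21 and did not pass (−0.61, adjusted *P* = 0.273), with ZT17 livers that spread from 805 to 1409. In cholesterol synthesis none of 24 genes was called by limma. An unadjusted *P*-value below 0.05 was found in 3 of them, against 2210 of all 14449 genes. Of the 24 differences 18 were positive, against 7270 of all 14449, and the median of the 24 was 0.20. In fatty acid oxidation 1 of 28 genes was called, against 2.30% of all genes. It was the peroxisomal thiolase *Acaa1a* (−0.34, adjusted *P* = 0.0461). The regulator *Ppara* and the mitochondrial gatekeeper *Cpt1a* differed by −0.05 and 0.28 (adjusted *P* = 0.945 and 0.26). Calls lost without a liver were *Acss2* without mouse 25 or 33 (up to 0.0836), *Insig2* without mouse 25 (0.0511), *Srebf1* without mouse 25, 26, 27, 31, 32 or 33 (up to 0.131) and *Acaa1a* without mouse 25, 26, 27, 31, 32 or 33 (up to 0.213).

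Targets of the insulin and FOXO pathway held 2 of the largest rises. *Igfbp1* was at 11.8, 6.71 and 12.0 at ZT17 and 39.3, 108 and 56.9 at ZT21. The lowest ZT21 liver was more than 3 times the highest ZT17 liver, yet the spread at ZT21 was wide (log2 difference 2.54, SE 0.61, adjusted *P* = 0.035). *Irs2*, the insulin receptor substrate whose transcription FOXO1 activates, rose from 12.9, 8.18 and 14.3 to 25, 33.8 and 26.5 (log2 difference 1.22, SE 0.27, adjusted *P* = 0.0228). *Slc37a4*, the transporter of glucose 6-phosphate into the ER, fell from 182, 193 and 189 to 115, 108 and 116 (log2 difference −0.73, SE 0.16, adjusted *P* = 0.0193). Of the gluconeogenic enzymes none was called. *Pck1* was at 209, 324 and 438 at ZT17 and 640.2, 1162 and 559.5 at ZT21, with separate groups (1.27, adjusted *P* = 0.103), and *G6pc* at 230.5, 141 and 301 at ZT17 and 268, 468 and 508 at ZT21, with overlapping groups (0.90, adjusted *P* = 0.446), while *Fbp1* and *Pcx* differed by −0.10 and 0.04 (adjusted *P* = 0.61 and 0.923). In this list of 21 genes the median was 0.02, or −0.01 without mouse 25 and −0.02 without mouse 32. Among 20 genes of glucose uptake, glycolysis and glycogen, *Gys2*, the liver glycogen synthase, was the only one called and fell from 164, 203 and 164 to 113, 125 and 117 (log2 difference −0.57, SE 0.09, adjusted *P* = 0.00452). Calls lost without a liver were *Igfbp1* without mouse 25, 26, 27, 32 or 33 (up to 0.14), *Irs2* without mouse 25, 26, 32 or 33 (up to 0.0965) and *Slc37a4* without mouse 25, 26, 27, 31, 32 or 33 (up to 0.071).

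**Figure D3:**
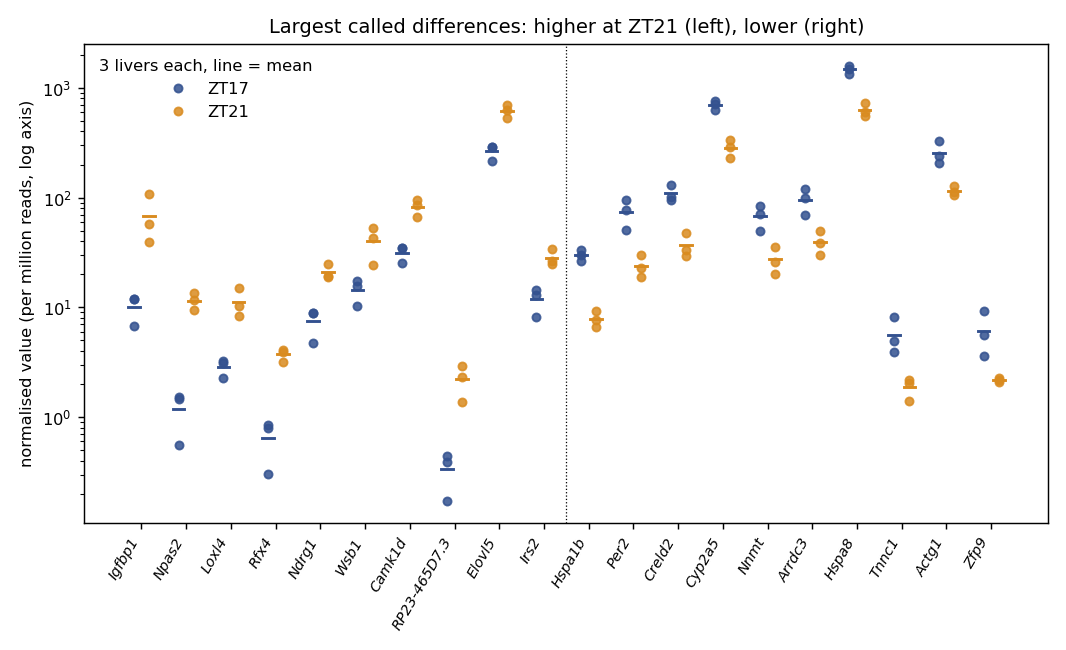
Normalised values on a log axis (y axis) in the single livers of ZT17 (blue) and ZT21 (orange), with a line at the mean of 3, for the 10 largest called rises (left) and the 10 largest called falls (right). In all 20 genes the 3 livers of one time do not overlap those of the other, which the choice of these genes required.

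Bile acid genes held 3 rises among 21 and no fall, where 1.31% of all genes rose and 0.990% fell. Of the 21 differences 12 were positive and 9 negative. The median was 0.03 against 0.002 over all genes, or −0.04 without mouse 32. The rises were 1 with the spread of the 6 livers alone and 0 with a minimum of 1.5-fold. *Abcb11*, the bile salt export pump, went from 492, 498 and 533 to 739.9, 772 and 744, with very small spread at each time (log2 difference 0.57, SE 0.08, adjusted *P* = 0.00152). *Hsd3b7*, an enzyme of bile acid synthesis, rose from 297, 314 and 296 to 482, 395 and 380.2 (log2 difference 0.46, SE 0.08, adjusted *P* = 0.00715), and *Abcg8*, one subunit of the sterol exporter, from 20.4, 28.0 and 24.7 to 36.2, 35.4 and 33.9 (log2 difference 0.52, SE 0.13, adjusted *P* = 0.0361). The other subunit, *Abcg5*, lies head to head with it and differed by 0.00 (adjusted *P* = 0.997). *Cyp7a1*, the rate-limiting enzyme of bile acid synthesis, was at 302, 115 and 180.4 at ZT17 and 102, 158 and 131 at ZT21. Its ZT17 livers spread more than the groups differed (−0.52, adjusted *P* = 0.598). In the list of 30 genes of the urea cycle and amino acid catabolism only *Agxt*, the alanine–glyoxylate aminotransferase, was called, and it rose from 111, 109.5 and 102 to 181, 164 and 142 (log2 difference 0.58, SE 0.14, adjusted *P* = 0.032). *Amdhd1*, of histidine catabolism, rose from 122, 118 and 134 to 194, 194 and 176 (log2 difference 0.59, SE 0.08, adjusted *P* = 0.00133). Calls lost without a liver were *Abcg8* without mouse 25, 27, 31, 32 or 33 (up to 0.206) and *Agxt* without mouse 25, 26, 27, 31 or 32 (up to 0.12).

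In heme and xenobiotic metabolism 3 of 32 genes fell and none rose, where 0.990% of all genes fell. The median was −0.20 against 0.002 over all genes. The count of falls was 1 without mouse 25, 27, 31 or 33 and 2 without mouse 26 or 32. It was 2 with plain total scaling or with the spread of the 6 livers alone. *Cyp2a5*, a coumarin hydroxylase, was at 754, 631 and 708 at ZT17 and 287, 333 and 229 at ZT21, so that every ZT21 liver was below every ZT17 liver (log2 difference −1.31, SE 0.28, adjusted *P* = 0.0202). Its near copy *Cyp2a4* differed by 0.01 (adjusted *P* = 0.997), and reads shared by the pair make the split between them uncertain. *Cyp2b10*, the classical target of the receptor CAR, fell from 98.6, 70.9 and 80.5 to 44.8, 44.4 and 36.5 (log2 difference −0.97, SE 0.16, adjusted *P* = 0.00452), and *Alad*, the second enzyme of heme synthesis, fell by less (−0.32, adjusted *P* = 0.04). *Alas1*, the first and rate-limiting enzyme, was at 180.5, 491 and 240 at ZT17 and 625, 54.6 and 413 at ZT21. The ZT21 livers differed among themselves by more than 10-fold, with mouse 32 lowest of the 6, and the log2 difference was −0.19 (adjusted *P* = 0.932), although the mean of the values was higher at ZT21 (1.20-fold).

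In NAD, methionine and polyamine metabolism 4 of 29 genes fell and none rose, where 0.990% of all genes fell. Of the 29 differences 14 were positive and 15 negative, and the median was −0.0. The falls called by limma were 1 without mouse 25 or at an adjusted *P*-value below 0.01, and 2 without mouse 31 or 33. *Nnmt*, which methylates nicotinamide, went from 83.4, 49.6 and 71.4 to 35.5, 26.1 and 20.3 (log2 difference −1.29, SE 0.30, adjusted *P* = 0.0281), and *Nampt*, the rate-limiting enzyme of NAD salvage, from 124, 104 and 104 to 64.5, 76.9 and 71.4 (log2 difference −0.63, SE 0.13, adjusted *P* = 0.0131). Of the polyamine enzymes in the list, *Odc1* and *Srm* fell. *Odc1*, ornithine decarboxylase, went from 138, 147 and 129 to 90.0, 99.6 and 91.7 (log2 difference −0.55, SE 0.11, adjusted *P* = 0.0147), and *Srm*, spermidine synthase, from 27.4, 37.2 and 26.8 to 17.9, 13.6 and 15 (log2 difference −0.93, SE 0.15, adjusted *P* = 0.00373). The others did not pass, with negative differences for *Amd1* (−0.52, adjusted *P* = 0.166), *Sms* (−0.22, adjusted *P* = 0.599) and *Smox* (−0.04, adjusted *P* = 0.961) and positive ones for *Sat1* (0.15, adjusted *P* = 0.552) and *Paox* (0.25, adjusted *P* = 0.245). Calls lost without a liver in this and the preceding list were *Cyp2a5* without mouse 25, 27, 31 or 33 (up to 0.0956), *Alad* without mouse 25, 26, 27, 31, 32 or 33 (up to 0.161), *Nnmt* without mouse 25, 27, 32 or 33 (up to 0.155), *Nampt* without mouse 25 or 31 (up to 0.0843) and *Odc1* without mouse 25, 26, 31 or 33 (up to 0.0657).

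The remaining lists moved little, and each held at most 3 called genes, with medians between −0.15 and 0.15. Of all genes 2.30% were called, with a median of 0.002. The immediate early median, 0.01, turned to −0.01 with quantile normalization, −0.10 without mouse 26 and −0.07 without mouse 32. That of the cell cycle and p53 list, −0.04, turned to 0.07 among genes with a mean of at least 5 and to 0.06 without mouse 31. *Klf9*, a Krüppel-like factor that glucocorticoids induce, rose from 33.4, 35.5 and 35.3 to 67.7, 46.2 and 68.0 (log2 difference 0.77, SE 0.14, adjusted *P* = 0.00816) and was the only call among 16 glucocorticoid genes. In autophagy and nutrient sensing *Gabarapl1*, an ATG8 protein (0.46, adjusted *P* = 0.0318), and *Tsc1*, an inhibitor of mTORC1 (0.44, adjusted *P* = 0.0453), rose, and *Bnip3*, a mitophagy receptor (−0.35, adjusted *P* = 0.0488), fell, out of 33. *Iigp1*, an interferon-inducible GTPase, rose from 269, 271 and 255 to 389, 332 and 378 (log2 difference 0.46, SE 0.10, adjusted *P* = 0.0159). Of the 31 interferon and antigen presentation genes 23 had a positive difference, against 7270 of all 14449. *Saa4*, a constitutive serum amyloid A, fell from 346, 383 and 378 to 234, 182 and 169 (log2 difference −0.93, SE 0.13, adjusted *P* = 0.00133), the only call among 27 acute-phase genes. Of 28 cytoskeletal genes, *Actg1* (cytoplasmic gamma actin) fell from 326, 204 and 238 to 126, 105 and 112 (log2 difference −1.13, SE 0.19, adjusted *P* = 0.00481) and *Tuba1c* (an alpha tubulin) fell by less (−0.59, adjusted *P* = 0.0233), and both have near-identical relatives that share reads. *Mybbp1a*, a nucleolar protein, fell (−0.42, adjusted *P* = 0.0183) as 1 of 34 genes of ribosome biogenesis. Among 80 cytosolic ribosomal protein genes *Rpl7l1*, a paralog of *Rpl7*, was the only call (−0.32, adjusted *P* = 0.0316). Of the 80 differences 74 were negative, against 7179 of all 14449. The median of the 80 was −0.12, or −0.07 with plain total scaling. None of 79 subunits of oxidative phosphorylation, 20 immediate early genes and 25 genes of the cell cycle and p53 response was called by limma. In these 3 lists 6, 4 and 5 genes had an unadjusted *P*-value below 0.05, against 2210 of all 14449 genes. In the cell cycle and p53 list *Cdkn1a* (p21) was at 8.95, 14.1 and 11.6 at ZT17 and 21.1, 14.6 and 12.6 at ZT21 (0.44, adjusted *P* = 0.625). Calls lost without a liver were *Klf9* without mouse 25 (0.0511), *Gabarapl1* without mouse 25, 26, 31, 32 or 33 (up to 0.127), *Tsc1* without mouse 25, 26, 31, 32 or 33 (up to 0.217), *Bnip3* without mouse 25, 26, 27, 31, 32 or 33 (up to 0.201), *Iigp1* without mouse 25, 27, 31 or 33 (up to 0.066), *Tuba1c* without mouse 25, 27, 32 or 33 (up to 0.127), *Mybbp1a* without mouse 25, 26, 32 or 33 (up to 0.0873) and *Rpl7l1* without mouse 25, 26, 27 or 32 (up to 0.141).

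**Figure D4:**
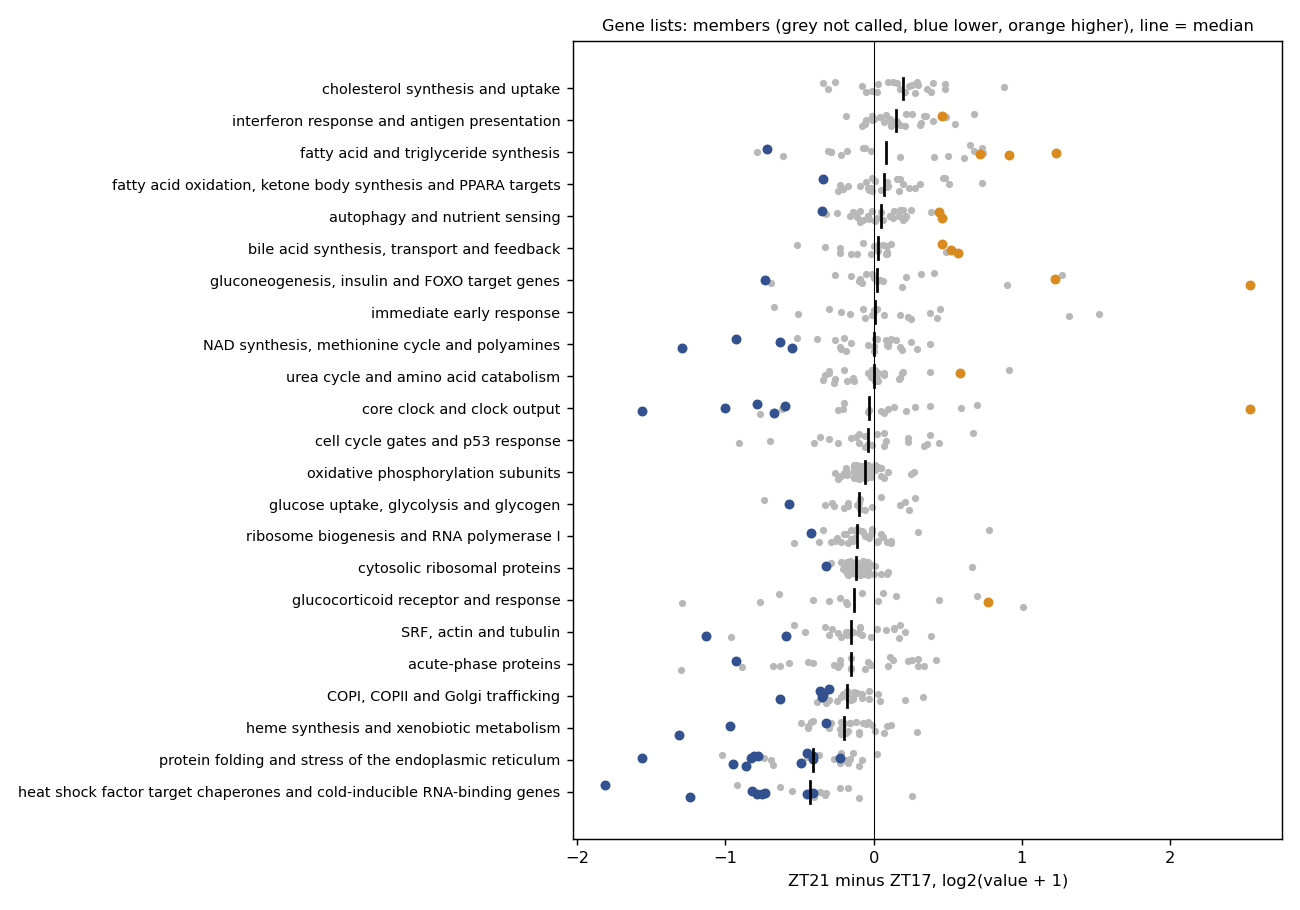
Differences ZT21 minus ZT17 on log2(value + 1) (x axis) of the members of 23 gene lists (y axis, ordered by median), with genes called higher in orange, called lower in blue, not called in grey, and a line at the median. The chaperone lists of the cytosol and the ER lie farthest to the left, at medians of −0.43 and −0.41.

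Other genes with large or precise differences belong to none of the lists. Among the rises, *Loxl4*, a lysyl oxidase of the matrix, went from 3.26, 2.29 and 3.09 to 8.43, 15 and 10.3 (log2 difference 1.63, SE 0.21, adjusted *P* = 0.00106), *Ndrg1*, a gene that hypoxia induces, from 8.88, 4.72 and 8.85 to 19.3, 24.6 and 19 (log2 difference 1.41, SE 0.23, adjusted *P* = 0.00365), and *Camk1d*, a calcium-dependent kinase, from 25.1, 34.8 and 34.4 to 66.2, 94.2 and 86.1 (log2 difference 1.36, SE 0.16, adjusted *P* = 0.000318). *Rfx4*, an RFX transcription factor, was low at both times, at 0.789, 0.303 and 0.848 at ZT17 and 3.19, 4.10 and 3.88 at ZT21 (log2 difference 1.53, SE 0.31, adjusted *P* = 0.0134). *Wsb1*, a SOCS-box protein, rose from 10.2, 15.7 and 17.3 to 43.1, 24.1 and 52.3 (log2 difference 1.37, SE 0.26, adjusted *P* = 0.00913), and so did RP23-465D7.3, which begins just beyond it at chr11:79258586-79273893, from 0.172, 0.389 and 0.441 to 2.32, 1.38 and 2.95 (log2 difference 1.25, SE 0.21, adjusted *P* = 0.00569). In these 6 genes the lowest ZT21 liver was above the highest ZT17 liver.

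*Abca8b*, a lipid transporter, had the second smallest adjusted *P*-value of the rises, with 43.9, 49.8 and 47.5 at ZT17 and 84.6, 83.5 and 79.0 at ZT21 (log2 difference 0.80, SE 0.08, adjusted *P* = 5.11e-05). *Tymp*, thymidine phosphorylase, had values of 55.7, 58.1 and 57.2 at ZT17 and 110.4, 128 and 103 at ZT21 (log2 difference 0.98, SE 0.11, adjusted *P* = 0.00033). It shares exon sequence with *Sco2* and *Ncaph2*, and *Sco2* differed by 1.01 (adjusted *P* = 0.00663), so that reads of the 2 cannot be told apart where they overlap unless the counting used strand, which is not given in the sources used here. Exons of 19 of the 86 genes named by rule overlap another gene of the table in this way, among them *Tef*, *Nr1d1*, *Dbp*, *Acss2*, *Srebf1*, *Dnaja1* and *Srprb*.

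Among the falls, *Arrdc3*, an arrestin-like adaptor, went from 119, 99.0 and 68.9 to 29.7, 49.7 and 38.3 (log2 difference −1.26, SE 0.26, adjusted *P* = 0.017), *Tnnc1*, cardiac troponin C, from 4.91, 8.09 and 3.89 to 1.41, 2.19 and 2.06 (log2 difference −1.16, SE 0.24, adjusted *P* = 0.0164), and *Zfp9*, a zinc finger gene, from 9.27, 5.59 and 3.59 to 2.25, 2.16 and 2.10 (log2 difference −1.09, SE 0.24, adjusted *P* = 0.0209). In *Zfp9* and *Tnnc1* the ZT17 livers differed by more than 2-fold among themselves, and the ZT21 livers differed by less. Calls of these other genes lost without a liver were *Rfx4* without mouse 25, 26, 32 or 33 (up to 0.0542), *Wsb1* without mouse 25 or 33 (up to 0.0657), *Arrdc3* without mouse 25, 26, 31 or 33 (up to 0.103), *Tnnc1* without mouse 25, 26 or 31 (up to 0.0672) and *Zfp9* without mouse 25, 31, 32 or 33 (up to 0.124).

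No marker of the cell types of the liver was called. This holds for all 72 measured, of hepatocytes, Kupffer cells, sinusoidal endothelium, stellate cells, bile duct, lymphocytes, neutrophils, red blood cells, pancreas and fat. Of these, 2 had an unadjusted *P*-value below 0.05, against 2210 of all 14449 genes. The livers of the times did not overlap in 7 (9.72%), against 20.5% of all genes. Summed Kupffer cell markers ranged from 155 to 353 at ZT17 and from 155 to 243 at ZT21, all 11 with a negative difference, and summed endothelial markers from 197 to 340 and from 197 to 297. Pancreatic markers summed to at most 12.9 in any of the livers. In whole liver, fewer cells of a type and less RNA per cell cannot be told apart.

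The place of the called genes in the day follows from their means at all 6 times, given as a description since the calls use 2 of them. Of the 190 genes that rose, 70 (36.8%) had their highest mean at ZT5, 59 (31.1%) at ZT1 and 50 (26.3%) at ZT21, while 89 (46.8%) had their lowest at ZT13 and 78 (41.1%) at ZT17. Of the 143 that fell, 64 (44.8%) had their highest mean at ZT13 and 62 (43.4%) at ZT17, and 64 (44.8%) had their lowest at ZT5. Over all genes the highest mean fell at ZT1 in 14.4%, at ZT5 in 21.0%, at ZT13 in 18.8%, at ZT17 in 16.9% and at ZT21 in 12.9%. The lowest fell at ZT5 in 16.8%, at ZT13 in 18.4% and at ZT17 in 18.5%.

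The change was set against that of the step from ZT5 to ZT9, in the middle of the light phase, which shares no liver with it. The steps lie 12 h apart, so a gene with a single, even daily wave moves in opposite directions in them, and other steps were not compared in this way. The difference between the steps was tested in the same fit. It was called in 731 genes (5.06%), 396 of them more positive and 335 more negative in the dark step. Of the 333 genes above, 254 (76.3%) were among them. This overlap is in part built in, since the difference between the steps contains the ZT21 minus ZT17 difference that chose the 333. Without mouse 9, the ZT5 liver nearest to ZT9 over the clock genes, the difference was called in 724 genes. The 2 steps had opposite signs in 277 (83.2%) of the 333 genes and in 57.4% of all genes, which is a description, since the first were chosen by their calls. The smallest adjusted *P*-values among the 333 were in genes that rose in the dark step. *Adck3* (*Coq8a*), of coenzyme Q synthesis, rose from 330.2, 294 and 365 to 442, 513 and 443 (log2 difference 0.50, SE 0.10, adjusted *P* = 0.0119), whereas it differed by −1.41 from ZT5 to ZT9 (difference of the steps 1.91, SE 0.14, adjusted *P* = 7.69e-07). *Clpx*, a subunit of a mitochondrial protease, rose from 206, 191 and 228 to 357, 389 and 319.5 (log2 difference 0.76, SE 0.11, adjusted *P* = 0.00133) and differed by −1.05 in the light step (adjusted *P* of the difference = 1.75e-06). *Tymp* (2.06, adjusted *P* = 1.43e-06), *Amdhd1* (1.39, adjusted *P* = 1.75e-06) and *Abca8b* (1.27, adjusted *P* = 1.8e-06) behaved likewise. For *Actg1* (−0.65, adjusted *P* = 0.196), *Arrdc3* (−0.60, adjusted *P* = 0.43) and *Nnmt* (−1.17, adjusted *P* = 0.127) the difference between the steps did not pass. The call of *Adck3* from ZT17 to ZT21 was lost without mouse 25, 26 or 32 (adjusted *P* up to 0.0657).

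**Figure D5:**
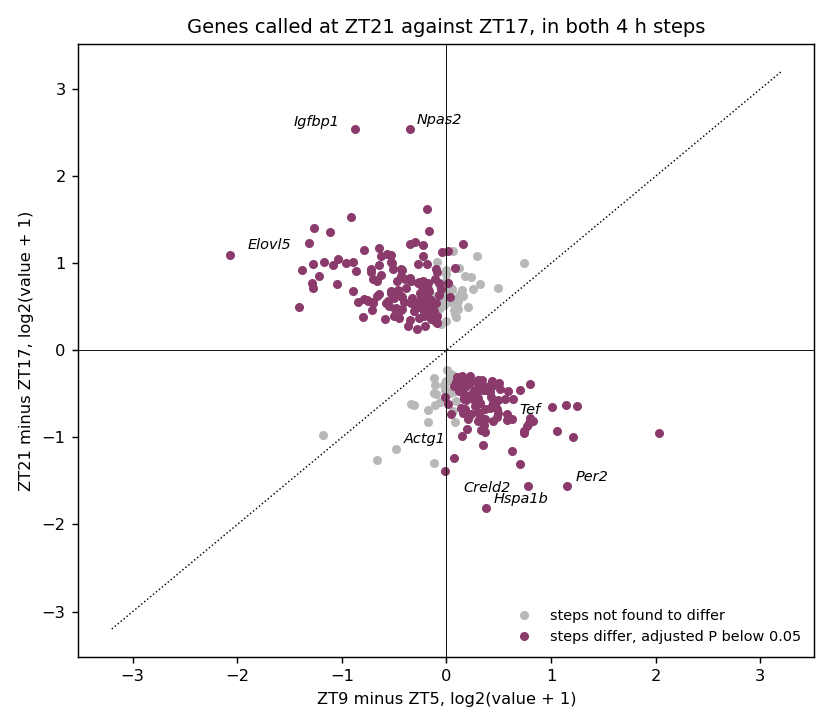
Each point is 1 of the 333 genes called from ZT17 to ZT21. The x axis is its difference ZT9 minus ZT5 and the y axis its difference ZT21 minus ZT17, both on log2(value + 1), with the 254 genes whose steps differ by the test in purple and a dotted line where the steps are equal. Genes that rose in the dark step mostly lie left of 0 and those that fell mostly right of 0.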

How the data were processed

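Per the labels, whole livers were snap-frozen, and libraries of polyadenylated RNA were made with a NEBNext Ultra kit and sequenced on a HiSeq2500. The authors processed reads with CASAVA 1.8.2 and cutadapt, quantified genes of GRCm38 with RSEM 1.2.20, which shares out ambiguous reads, and normalized with limma. The deposited values are a linear signal, the estimated count plus 0.5 per 1000000 reads of a library size set by the authors. Columns of the 6 livers sum to between 979373 and 1077230. The minimum of a column marks 0 reads and gave its depth. Only 42.2% to 49.4% of values came within 0.001 of a whole read, so no count test was used. Of 14451 genes, 2 that stood at this minimum throughout were left out.

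Here limma 3.58.1 (R 4.3.3) fitted log2(value + 1) in 6 time groups of 3, with empirical Bayes shrinkage and a mean trend. The 18 livers share 1 spread, with no covariate, since the labels give no batch or pairing. Data of 14449 genes were simulated for ZT21 against ZT17 with independent normal noise and no other difference between times. The changed genes were drawn from those with a mean log2(value + 1) above 1. There limma recovered 43 of 100 genes changed by 0.5 and 90 of 100 changed by 1 on the log2 scale, and called 4 flat genes. These counts need not hold for genes with lower values or for livers that deviate in many genes at once.

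The comparison and the gene lists were chosen with earlier results of these data known. Lists are described by counts and medians, with no test. Genes were named by rule, as the 10 largest called differences with separate livers and the 5 smallest adjusted *P*-values in each direction, all clock genes, up to 4 called members of each list, a set of key metabolic, chaperone and cell cycle genes, and the 5 smallest adjusted *P*-values of the step comparison. A few genes that the rule names are not reported here. Predicted gene models were left out of the ranks. Further list members were named after their values were seen, as were *Sco2*, *Cyp2a4* and *Abcg5*. Alternatives changed the pseudocount, filter, scaling, shrinkage, threshold and livers.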

Additional observations from a re-analysis of the deposited data

Results flagged for a closer look

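The step from ZT17 to ZT21 differed from the step from ZT5 to ZT9, by limma's test of the difference itself, in 59 of the 86 named genes. Most of these were named for their calls from ZT17 to ZT21 and 5 for this test, so the count is no measure of how common such differences are. Over all 14449 genes it was 731 (5.06%). Values here are the dark step minus the light step on log2(value + 1), at an adjusted *P*-value below 0.05, and no explanation was tested.

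Among clock genes the difference was 2.88 for *Npas2*, 1.63 for *Nr1d1*, 1.44 for *Arntl* and 0.79 for *Clock*. It was negative for *Per2* (−2.71), *Ciart* (−2.62), *Per3* (−2.21), *Tef* (−1.42), *Dbp* (−1.27), *Hlf* (−0.93) and *Nr1d2* (−0.85). *Arntl*, *Clock*, *Nr1d1*, *Ciart* and *Dbp* were not called between ZT17 and ZT21 alone.

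The cytosolic chaperones named by rule were more negative in the dark step, with −2.19 for *Hspa1b*, −1.30 for *Hspa8*, −1.15 for *Dnaja1* and −0.76 for *Dnajb1*. The ER and trafficking genes named by rule were so too, with −2.35 for *Creld2*, −1.69 for *Dnajb9*, −1.26 for *Hspa5* and −1.23 for *Herpud1*. Values were −1.09 for *Sec23b*, −1.08 for *Srprb*, −0.91 for *Lrrc59*, −0.67 for *Uso1*, −0.55 for *Arf4* and −0.45 for *Surf4*. All of these genes were called lower from ZT17 to ZT21, a change that is part of this difference, and the whole lists were not compared in this way.

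In metabolism the difference was positive for *Igfbp1* (3.42), *Elovl5* (2.55), *Insig2* (2.0), *Adck3* (1.91), *Acss2* (1.77), *Irs2* (1.57), *Amdhd1* (1.39), *Agxt* (1.35), *Abcb11* (1.31), *Abca8b* (1.27) and *Hsd3b7* (1.17). It was negative for *Cyp2a5* (−2.01), *Srm* (−1.98), *Nampt* (−1.78), *Slc37a4* (−1.31), *Gys2* (−1.06), *Srebf1* (−0.88) and *Odc1* (−0.85).

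Of the other named genes it was positive for *Ndrg1* (2.68), *Camk1d* (2.46), *Rfx4* (2.44), *Tymp* (2.06), *Loxl4* (1.81), *Clpx* (1.81), *Wsb1* (1.54), RP23-465D7.3 (1.54), *Gabarapl1* (0.89), *Klf9* (0.83) and *Tsc1* (0.65). It was negative for *Tnnc1* (−1.79), *Saa4* (−1.67), *Zfp9* (−1.45), *Bnip3* (−0.65) and *Mybbp1a* (−0.56).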

How the results depend on the processing

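Depth limits the genes with the fewest reads. Of all genes, 473 were at the lowest value in at least 1 of the 6 livers, where a low value cannot be told from 0. With 3 livers per time, the simulation missed 57 of 100 genes changed by 0.5 on the log2 scale, so a gene not called is not shown to be equal. No paired analysis was possible because the livers of the 2 times come from different mice and share no number.

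None of the 333 called genes changed sign in any alternative. The count of calls, with those higher and lower, fell to 172, 90 and 82 with the 6 livers alone, to 218, 136 and 82 without the trend, to 80, 46 and 34 at an adjusted *P*-value below 0.01, and to 180, 117 and 63 with a 1.5-fold minimum. Plain total scaling gave 250 higher and 85 lower. Leaving out 1 of the 6 livers in turn gave 71 to 229 calls, 41 to 142 higher and 30 to 108 lower, while the spread estimate then rests on fewer livers. The count for the difference between the steps was 327 at an adjusted *P*-value below 0.01, 564 with a 1.5-fold minimum and 569 without the trend. Leaving out 1 of the 6 livers in turn gave 524 to 670 for it. The pseudocount, the filters, the other scalings, robust shrinkage and leaving out mouse 9 at ZT5 kept the count of calls between 297 and 347. Among the named genes, a pseudocount of 0.1 ended the calls of *Tnnc1* and *Bnip3*. Without mouse 9 the count was 297, with 168 higher and 129 lower. The cause of these shifts was not tested. Of the 64 named genes called, 23 were called in every alternative. Of the 22 not called, 5 changed sign. *Csnk1d* was 0.02 and *Ppara* 0.01 with plain total scaling. With 1 liver left out, the ranges were −0.08 to 0.05 for *Csnk1d*, −0.31 to 0.25 for *Ppara*, −0.05 to 0.16 for *Cry1*, −0.20 to 0.10 for *Bhlhe41* and −0.88 to 0.87 for *Alas1*.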

Other observations

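Further genes, all but *Gbp6* called from ZT17 to ZT21, were picked after their values were seen. They are a description of single genes and no test of a group. *Elovl3*, an elongase of very long saturated fatty acids, had 249, 274 and 344 at ZT17 and 652, 619.6 and 579 at ZT21 (log2 difference 1.10, SE 0.23, adjusted *P* = 0.0176). *Ppard*, the nuclear receptor PPAR delta, rose from 12.5, 14.3 and 14.7 to 31.9, 30.3 and 32.7 (log2 difference 1.14, SE 0.16, adjusted *P* = 0.00133), and *Crot*, which hands acyl groups from peroxisomes to carnitine, from 389, 339.7 and 452 to 609, 692 and 581 (log2 difference 0.68, SE 0.15, adjusted *P* = 0.0202). In all 3 the groups were separate.

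The interferon-inducible genes that follow lie outside the list and were picked in this way, so how many of them rose is no measure of a wider rise. *Ddx60* went from 2.92, 2.73 and 3.36 to 6.90, 7.17 and 6.09 (log2 difference 0.95, SE 0.17, adjusted *P* = 0.00663), *Zbp1* from 5.25, 4.8 and 5.49 to 8.67, 8.70 and 10.1 (log2 difference 0.72, SE 0.15, adjusted *P* = 0.0204) and *Rtp4* from 10.2, 8.78 and 10.6 to 15.1, 13.4 and 14.4 (log2 difference 0.50, SE 0.12, adjusted *P* = 0.0422). *Gbp6* had 5.41, 6.05 and 7.77 at ZT17 and 9.06, 7.26 and 12.5 at ZT21 and did not pass the test (log2 difference 0.50, SE 0.44, adjusted *P* = 0.641). The list itself held 1 call in 31.

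Of single genes that fell, *Cad*, which starts pyrimidine synthesis, went from 22.3, 24 and 20.4 to 12.6, 12.2 and 16.4 (log2 difference −0.67, SE 0.16, adjusted *P* = 0.0364), and *Umps*, which ends it, from 39.6, 37.7 and 43.5 to 27.1, 33.2 and 31.6 (log2 difference −0.39, SE 0.10, adjusted *P* = 0.0461). The purine enzymes *Gart* (−0.31, adjusted *P* = 0.0481), *Gmps* (−0.39, adjusted *P* = 0.0448) and *Aprt* (−0.48, adjusted *P* = 0.0375) were lower. *Atp1b1*, a subunit of the sodium pump, was lower (−0.49, adjusted *P* = 0.018), as was *Usp2*, a ubiquitin protease with a daily rhythm in many tissues (−0.95, adjusted *P* = 0.0324).

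The numbers of calls in the 6 steps of 4 h, from the same fit, were 912 from ZT1 to ZT5, 334 from ZT5 to ZT9, 1605 from ZT9 to ZT13, 300 from ZT13 to ZT17, 333 from ZT17 to ZT21 and 29 from ZT21 to ZT1. Neighbouring steps share livers, and the difference between these counts was not tested.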
